A study of Mus musculus with 18 samples.

Results

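The 10 genes described here mark hepatic stellate cells: *Pdgfrb*, *Des*, *Lrat*, *Reln*, *Hand2*, *Acta2*, *Hgf*, *Ngfr*, *Rgs5*, and *Lhx2*. An open region was assigned to a gene when its midpoint lay in the gene body or within 10 kb of either end of the gene record in the GENCODE vM1 annotation of mm9. Of the 69499 open regions, 20 fell in the windows of these 10 genes, which are 10 of 22367 protein-coding genes. The regions came from fast-ATAC-Seq of 50000 liver macrophages (LMs) per reaction, an assay in which a transposase cuts and tags the DNA that nucleosomes leave free. Of the 18 libraries, 3 were made for each genotype (*Reverb*-hDKO, *Reverb/Scap*-hTKO, and control) at each time, zeitgeber time (ZT) 10 and ZT22. All were from adult male C57BL/6J mice fed a high-fat, high-sucrose diet (HFHSD) for 4 weeks. *Rev-erb*α and *Rev-erb*β (*Reverb*-hDKO), or both with *Scap* (*Reverb/Scap*-hTKO), were deleted with an adeno-associated virus carrying CRE under the TBG promoter. This promoter is specific to hepatocytes, so the deletions were aimed at neither LMs nor stellate cells. Control mice received the same virus with GFP, and the sources used here do not say which floxed alleles the control mice of these libraries carried.

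Hepatic stellate cells are pericyte-like cells that lie between hepatocytes and the sinusoidal endothelium, next to the Kupffer cells, and they store vitamin A as retinyl esters in lipid droplets. After liver injury they become myofibroblasts, which contract and lay down collagen, and PDGF is a strong mitogen for them. The libraries were made from LMs, so these genes belong to a neighboring cell type and not to the cell type on the label. An open region at a promoter shows that the DNA is accessible, and it does not show that the gene is transcribed.

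One list of regions stands for all 18 libraries, and it gives where each region lies but no count or signal. Depth per library is therefore unknown, and no genotype, time, or replicate could be compared at any of these genes. A region of this list that was open in LMs cannot be told apart from one that was open in a few other cells of the preparation. All values below are descriptions of this one list, with no test.

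The sequences of the open regions were read first. For the members with an open region at a start site, the region nearest the 5′ end is shown, and for the others the widest region away from starts. The first region of *Acta2* and the third of *Lhx2* are added because they hold motifs, a choice made after their values were seen. Letters are from the NCBIM37 assembly (mm9), run 5′ to 3′ on the strand of the gene, and leave out untranslated bases. The start region of *Pdgfrb* is not shown, nor is the first region of *Lhx2*, where no base is left. Capitals mark an AP-1 site, a GC box, a TATA box, or the core of a CTCF site, each found on either strand. The AP-1 site was searched for as TGACTCA and as its variant with a G at the middle. The GC box was spelled GGGCGG, which is the site of SP1 and its relatives. The TATA box was taken as TATAAA.
*Des*, open start, chr1:75356831-75356903, plus strand: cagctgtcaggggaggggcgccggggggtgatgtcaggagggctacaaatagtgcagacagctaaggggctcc
*Hgf*, open start, intron bases, chr5:16059463-16059556, plus strand: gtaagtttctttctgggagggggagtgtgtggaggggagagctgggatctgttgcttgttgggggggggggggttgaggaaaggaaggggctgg
*Lhx2*, before an inner start, chr2:38206472-38206748, plus strand: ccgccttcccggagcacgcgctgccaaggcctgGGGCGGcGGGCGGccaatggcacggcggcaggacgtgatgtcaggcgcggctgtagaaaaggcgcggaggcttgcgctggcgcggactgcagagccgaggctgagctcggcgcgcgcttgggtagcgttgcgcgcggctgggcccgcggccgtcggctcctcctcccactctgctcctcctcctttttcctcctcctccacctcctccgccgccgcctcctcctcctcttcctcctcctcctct
*Ngfr*, intron 1, chr11:95447658-95447812, minus strand: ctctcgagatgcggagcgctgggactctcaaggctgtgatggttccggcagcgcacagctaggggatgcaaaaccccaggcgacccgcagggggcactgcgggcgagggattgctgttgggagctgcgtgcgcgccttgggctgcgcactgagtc
*Acta2*, intron 3, chr19:34323201-34323351, minus strand: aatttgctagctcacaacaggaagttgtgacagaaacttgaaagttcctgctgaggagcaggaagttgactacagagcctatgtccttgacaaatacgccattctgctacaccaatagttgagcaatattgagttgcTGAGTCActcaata
*Acta2*, intron 7, chr19:34318658-34318892, minus strand: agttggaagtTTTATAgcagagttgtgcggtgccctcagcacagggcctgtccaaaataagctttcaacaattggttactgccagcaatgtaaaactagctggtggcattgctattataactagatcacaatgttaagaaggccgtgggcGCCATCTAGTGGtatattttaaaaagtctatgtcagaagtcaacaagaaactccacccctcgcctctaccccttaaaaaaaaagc
*Hand2*, downstream flank, chr8:59807458-59807608, plus strand: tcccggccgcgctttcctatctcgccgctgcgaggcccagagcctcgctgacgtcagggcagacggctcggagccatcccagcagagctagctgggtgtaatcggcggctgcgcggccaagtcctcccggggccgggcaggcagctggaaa

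No open region was found at a start in 6 of the genes. For 4 of them, chosen after their values were seen, the 150 bases before the 5′ end of the gene are shown, since these bases lie outside every region of the list. Capitals mark GC boxes in *Lrat* and *Reln*, the pattern TATATA in *Rgs5* and *Acta2*, and, in *Acta2*, 2 CArG-like sites. A CArG box is the site of serum response factor, the regulator of muscle actin genes, and a CArG-like site may have 1 other base in the AT center of this site.
*Lrat*, chr3:82707896-82708045, minus strand: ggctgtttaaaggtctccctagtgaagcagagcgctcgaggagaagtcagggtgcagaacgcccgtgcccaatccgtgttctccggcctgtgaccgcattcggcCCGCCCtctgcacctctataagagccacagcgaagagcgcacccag
*Reln*, chr5:21850524-21850673, minus strand: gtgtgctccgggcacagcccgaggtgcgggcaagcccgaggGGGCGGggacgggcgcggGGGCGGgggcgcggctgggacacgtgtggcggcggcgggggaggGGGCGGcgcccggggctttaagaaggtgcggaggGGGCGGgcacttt
*Rgs5*, chr1:171585482-171585631, plus strand: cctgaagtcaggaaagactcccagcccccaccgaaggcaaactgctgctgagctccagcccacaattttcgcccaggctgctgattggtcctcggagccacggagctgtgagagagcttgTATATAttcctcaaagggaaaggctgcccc
*Acta2*, chr19:34329827-34329976, minus strand: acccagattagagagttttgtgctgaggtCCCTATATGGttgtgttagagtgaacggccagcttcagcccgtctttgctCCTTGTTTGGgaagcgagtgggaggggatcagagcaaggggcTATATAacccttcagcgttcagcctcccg

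A start was called open when the midpoint of a region lay within 1000 bp of an annotated transcript start of the gene. *Pdgfrb*, *Des*, *Hgf*, and *Lhx2*, or 4 of 10 genes, had an open start, against 56.7% of protein-coding genes. *Acta2*, *Hand2*, and *Ngfr* had open regions but none at a start, and *Lrat*, *Reln*, and *Rgs5* had no region at all. So 7 of 10 genes had at least 1 region in their window, against 74.4% of protein-coding genes. A region away from the starts was present at 6 of 10, against 64.3%. The last 2 counts were near the share over all genes. The count of open starts rests on 10 genes only and moved with the setting. It was 5 of 10 within 2000 bp, beside 59.5%, and 3 of 10 with regions of at least 200 bp, beside 34.4%. Of the 20 regions of these genes, 6 lay at own starts, 8 in introns, 5 in the downstream flank, and 1 in the upstream flank. That share at starts, 30%, is set beside 30.1% of all regions, which lay at a start of any gene. None of the 20 regions was within 1000 bp of the start of another gene.

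**Figure D1:**
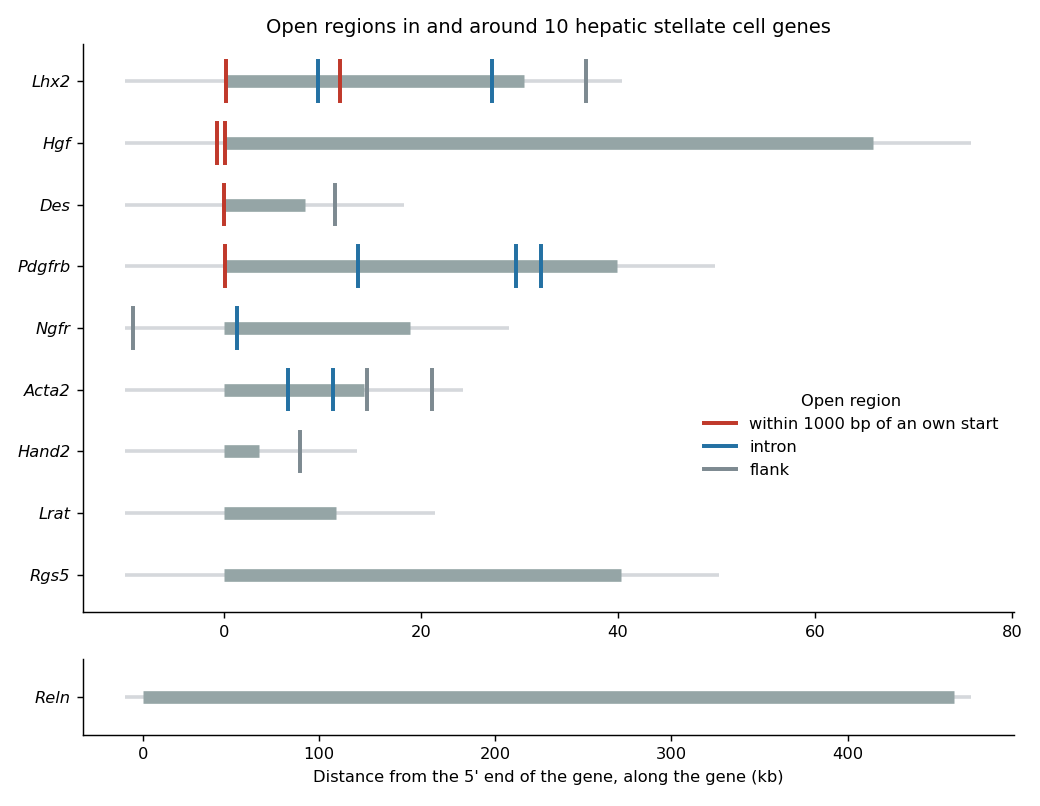
Open regions of the 10 genes, with distance from the 5′ end along the gene in kb on the horizontal axis. Thick bars are gene bodies, thin bars the 10 kb flanks, and vertical ticks the midpoints of regions; the bottom axis, for *Reln*, has another scale. Red ticks, within 1000 bp of an own start, appear at *Lhx2*, *Hgf*, *Des*, and *Pdgfrb*, while *Lrat*, *Rgs5*, and *Reln* have no tick.

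The receptors and ligands of stellate cells were split between open, partly open, and closed loci. *Pdgfrb* (ENSMUSG00000024620.5, chr18:61204804-61244715), the receptor for PDGF-BB and PDGF-DD, had 4 regions of 151 bp each. The first, at 61204821-61204971, covered a start at position 61204854 in exon 1. The other 3 lay in introns 1, 14, and 15, at 13566 bp, 29627 bp, and 32140 bp from that start. With 6.68 regions per 100 kb of window, *Pdgfrb* had a higher density than 60% of protein-coding genes. Each of its 4 regions had the commonest width in the whole list, so that the open start of *Pdgfrb* is lost when only regions of at least 200 bp are kept.

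*Hgf* (ENSMUSG00000028864.3, chr5:16059368-16125257), the ligand of the MET receptor and a mitogen for hepatocytes, showed the opposite layout. Both of its regions were at the promoter. One of 225 bp, at chr5:16059332-16059556, covered the start, and one of 166 bp, at chr5:16058536-16058701, had its midpoint 749.5 bp upstream. Among the coding genes with an open start, 47.4% likewise had at least 2 regions at own starts, and 17.9% had none elsewhere. No region lay farther into this gene of 65890 bp, which gave *Hgf* 2.33 regions per 100 kb, less than *Pdgfrb* and above 34.1% of protein-coding genes.

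*Ngfr* (ENSMUSG00000000120.6, chr11:95430132-95449049), which encodes the p75 neurotrophin receptor, was the nearest of the genes to the limit for an open start. Its region in intron 1, shown above, was centered 1314 bp from the start, just outside the 1000 bp limit, whereas the upstream region of *Hgf* at 749.5 bp was the outermost one inside. A window of 2000 bp would add *Ngfr* to the genes with an open start, making 5, and 609 protein-coding genes (2.72%) would move in the same way. The other region of *Ngfr*, at chr11:95458251-95458401, lay 9277 bp upstream in the flank. Between them was a stretch of 10438 bp with no region that contained the promoter, and 3 GC boxes were found in the 150 bases before the start.

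*Reln* (ENSMUSG00000042453.7, chr5:21390272-21850523) encodes reelin, a large secreted glycoprotein that binds lipoprotein receptors, and it is the longest of the genes at 460252 bp. It had no region in the gene or in either flank. The nearest lay 87238 bp upstream of the 5′ end, and the stretch without a region that held the gene was 645006 bp long. Of the 69341 stretches between neighboring regions, 0.776% were as long, but a window of 480252 bp with no region can lie only in a long stretch. Of 239 protein-coding genes with a window of at least this length, 27 (11.3%) had no region, and their median was 5 regions.

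*Rgs5* (ENSMUSG00000026678.5, chr1:171585632-171625944), a regulator of G protein signaling and a marker of pericytes, was also empty. Its nearest region was 123938.5 bp upstream, at the start of *Nuf2*, the largest such distance among the 10 genes, and 89.1% of protein-coding genes had a nearer one. The stretch around *Rgs5* without a region was 385174 bp, and 1.45% of stretches were as long. Of the 3269 coding genes with a window 0.8 to 1.25 times as long as that of *Rgs5*, 12.3% had no region.

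**Figure D2:**
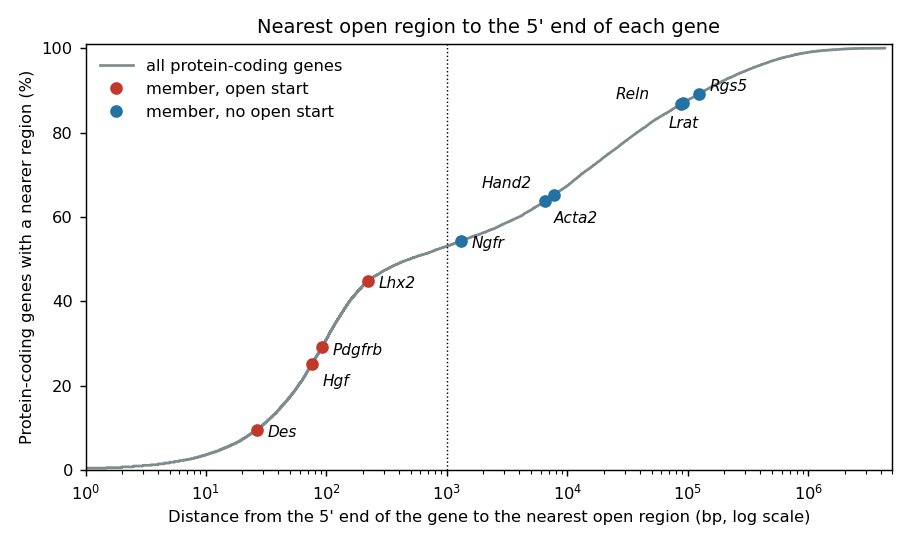
Distance from the 5′ end of a gene to the midpoint of the nearest open region, in bp on a log axis, against the percentage of protein-coding genes with a nearer region. The grey line is all 22367 protein-coding genes, points are the 10 genes, and the dotted line is at 1000 bp. Points run from *Des* at 26.5 bp to *Rgs5* at 123938.5 bp, with *Ngfr* just right of the dotted line.

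The genes of the contractile and filament apparatus differed in where they were open. *Des* (ENSMUSG00000026208.9, chr1:75356904-75365154) encodes desmin, the muscle intermediate filament that marks rodent stellate cells. Its region at chr1:75356831-75357030 covered the start, and its midpoint was 26.5 bp from the 5′ end of the gene record, the shortest such distance of the 10 genes. To any annotated start, the first region of *Lhx2* was nearer, at 13 bp. Only 9.53% of protein-coding genes had a region nearer to their 5′ end than *Des*. A second region of 151 bp lay 3012 bp past the 3′ end, inside the gene record *Gm15179*.

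*Acta2* (ENSMUSG00000035783.8, chr19:34315580-34329826), smooth muscle actin, is the standard marker of the activated stellate cell. It had 4 regions, or 11.68 per 100 kb, the highest density of the 10 genes and above 78.7% of protein-coding genes. All 4 were away from the start. They lay in intron 3 and intron 7, 277 bp past the 3′ end, and 6926 bp past it, where the last one was inside *Stambpl1*. The nearest to the start was 6550 bp into the gene. Among the 9674 protein-coding genes with no open start, 40.8% had at least 1 region and 9.75% had at least 4, so *Acta2* was in the upper tail of that class. The class was not matched for length, with a median window of 26792 bp, beside 34247 bp for *Acta2*. The 5979 coding genes with a window of like length, with or without an open start, had a median of 3 regions. The promoter itself, with its 2 CArG-like sites at −121 to −112 (CCCTATATGG) and −71 to −62 (CCTTGTTTGG) and TATATA at −29 to −24, was in a stretch of 21369 bp with no region.

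Of the retinoid genes, *Lrat* (ENSMUSG00000028003.6, chr3:82696501-82707895) makes the retinyl esters that fill the droplets of the quiescent cell, and it is widely used as the most specific stellate cell marker. Neither the gene nor its flanks held a region. The nearest was 91648.5 bp upstream, and 87% of protein-coding genes had a nearer one. The stretch without a region measured 201597 bp, and 3.1% of stretches were as long. In coding genes with a window of like length, 20.8% had no region.

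The transcription factors contrasted with each other. *Lhx2* (ENSMUSG00000000247.4, chr2:38194801-38225253), a LIM homeobox factor that restrains stellate cell activation, had the most regions of the 10 genes. Of its 5 regions, 2 were at starts. One of 169 bp, at chr2:38194937-38195105, covered the start of a retained-intron transcript at position 38195008 and was 220 bp from the 5′ end of the gene. The other, at chr2:38206472-38206748, was the widest of the 20 regions at 277 bp and lay 218 bp from an inner start at position 38206828 that belongs to a protein-coding transcript. Of the remaining 3 regions, 2 were in introns, at 9585 bp and 27170.5 bp from the 5′ end, and 1 was 6359 bp past the 3′ end. The density of 9.91 regions per 100 kb was above that of 73.7% of protein-coding genes.

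*Hand2* (ENSMUSG00000038193.3, chr8:59799780-59803314), a basic helix-loop-helix factor of mesenchymal cells, had 1 region only, of 151 bp, 4219 bp past its 3′ end and 7753 bp from its start. This region had a GC content of 70.2% and a CpG ratio, observed over expected, of 0.86, the second highest ratio of the 20 regions after the inner start of *Lhx2* (0.93). Coding genes with a window of like length had a median of 1 region, and 45.4% had none.

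Over all 10 genes the median was 2 regions per window and 4.69 regions per 100 kb, beside 2 and 4.70 over all protein-coding genes. The nearness of these densities depended on the window: they were 3.40 and 1.38 without flanks, 2.45 and 4.73 with flanks of 50 kb, and 0.00 and 0.96 with regions of at least 200 bp. The spread was from 0 (*Lrat*, *Reln*, and *Rgs5*) to 11.68 (*Acta2*) per 100 kb. The median distance from the 5′ end to the nearest region was 3932 bp for the 10 genes and 492.5 bp for all protein-coding genes, and it was 30844.5 bp for those with no open start.

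Base composition of the 5′ end sets a different background for each gene, since CpG-rich promoters are open in most cell types. A 5′ end was called CpG-rich when the 1001 bp around it had a CpG ratio of at least 0.6 and a GC content of at least 50%. Of the 9880 CpG-rich protein-coding genes, 87% had an open start. Only 2 of the 5 CpG-rich stellate cell genes did, *Des* and *Lhx2*, whereas *Lrat*, *Reln*, and *Hand2* did not. Of the 12487 CpG-poor genes, 32.8% had an open start, and so did 2 of the 5 CpG-poor members, *Pdgfrb* and *Hgf*, but not *Acta2*, *Ngfr*, and *Rgs5*. *Reln* was the extreme, with a GC content of 77%, a CpG ratio of 1.01, and 4 GC boxes in the 150 bases before its start. Among the 1287 CpG-rich coding genes without an open start, 37.4% had no region in the window, as *Lrat* and *Reln* did. *Ngfr*, with a ratio of 0.57, fell just under the CpG limit.

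**Figure D3:**
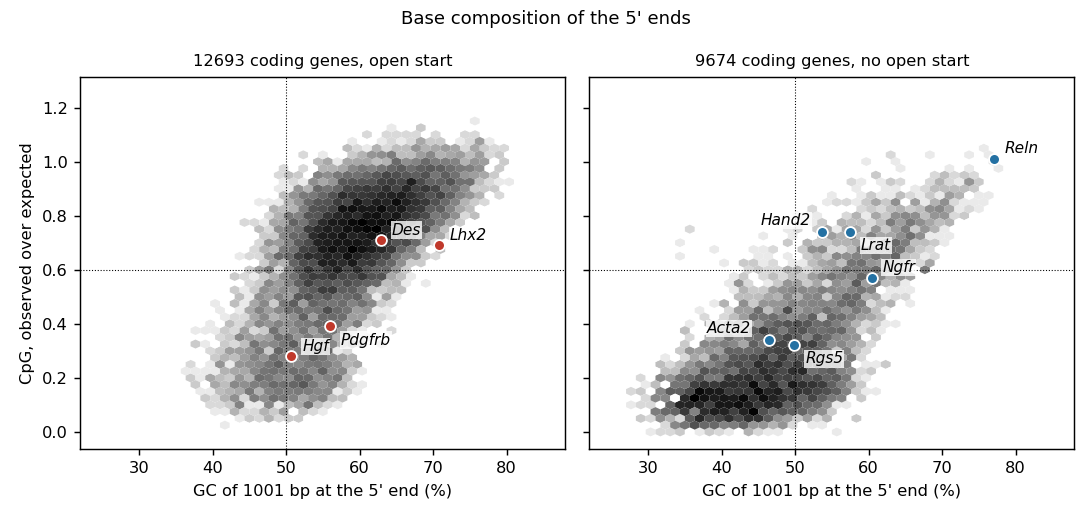
GC content in percent against the CpG ratio (observed over expected) of the 1001 bp at the 5′ end of protein-coding genes with (left) and without (right) an open start. Grey hexagons are darker where more genes lie, on a log scale, points are the 10 genes, and dotted lines mark the limits of 50% and 0.6. *Lrat*, *Hand2*, and *Reln* lie in the upper right of the right panel, where 1287 genes pass both limits, against 8593 in the left panel.

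The 20 regions were narrow. Their median width was 151 bp, with a range of 151 to 277 bp, and 11 of 20 (55%) had exactly 151 bp, beside 46.5% of all regions. The 6 regions at own starts had a median of 184.5 bp, beside 188 bp for all regions at starts, and 1 of 6 was 151 bp wide. Away from the starts, 10 of 14 (71.4%) had this width, beside 53.6% of all such regions. The same 6 regions, which belong to 4 genes, had a median GC content of 63.3%, beside 61.2% over all regions at starts, and a median CpG ratio of 0.42, beside 0.70. For the 14 regions away from starts the median CpG ratio was 0.44, beside 0.22. Regions of 1 gene share their neighborhood and are not independent.

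Few motifs were found in the 20 regions. The AP-1 site TGAGTCA occurred once, in the intron 3 region of *Acta2* at chr19:34323208-34323214, while 6.56% of all regions held such a site. The intron 7 region of *Acta2* held the core of a CTCF site at chr19:34318731-34318742 and TTTATA, which is a TATA box on the other strand. CTCF cores were found in 2.54% of all regions. A TATA box was also present in the fourth region of *Lhx2*, and 4.56% of all regions had one. GC boxes occurred in 2 of the 6 start regions, at *Des* and at the inner start of *Lhx2*, with 2 each, while 44.5% of all regions at starts had one. In *Des* these lay in exon 1, downstream of the bases shown.

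The motifs of several other factors were not found in the 20 regions. They were the PU.1 core GAGGAAGT (3.82% of all regions), TEAD (GGAATG, 8.57%), the LIM homeobox core TAATTA (1.99%), MEF2 (1.21%), the CArG box (0.864%), CArG-like sites (5.78%), TATATA (1.39%), and the retinoid element DR5 (0.0231%). A missing match says only that these letters are not in these windows. In the 150 bases before the starts, a GC box was present in 35.5% of protein-coding genes, a CArG-like site in 4.9%, and TATATA in 3.16%. By this count *Reln* had 4 GC boxes, *Lhx2* 4, *Ngfr* 3, *Des* and *Hand2* 2 each, and *Lrat* 1.

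Other stellate cell genes had an open start at a share near that of the 10, and both shares were below the 56.7% of protein-coding genes. With regions of at least 200 bp the counts were 4 of 20 and 3 of 10, beside 34.4%. Of 20 such genes, 9 (45%) had an open start, among them *Col1a1*, *Pdgfra*, *Gfap*, *Tcf21*, *Vipr1*, *Bambi*, *Gata4*, and *Myl9*. *Col1a1*, a chain of type I collagen, had its nearest region 429 bp from a start. *Myl9*, a smooth muscle myosin light chain, had one at 106 bp, although the actin gene *Acta2* had none within 1000 bp. Among the 20, 6 had no region, beside 3 of the 10, while 74.4% of protein-coding genes had at least 1. In 16 of the 20 the 5′ end was CpG-poor, and 7 of these were open, beside 32.8% of CpG-poor protein-coding genes. Of the 4 with a CpG-rich 5′ end, 2 were open, beside 87%.

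The ligands, receptors, and retinoid partners of the 10 genes had an open start in 16 of 19 cases, beside 56.7% of protein-coding genes. Of these partners, all 9 with a CpG-rich 5′ end were open, beside 87% of CpG-rich protein-coding genes. Of the 10 with a CpG-poor 5′ end, 7 were open, beside 32.8%. The 5 PDGF genes of the list were open, *Pdgfa*, *Pdgfb*, *Pdgfc*, *Pdgfd*, and the second receptor *Pdgfra*. *Pdgfd*, which encodes a ligand of the *Pdgfrb* product, had a region 8.5 bp from a start. *Met*, the HGF receptor, was open with 10 regions. *Vldlr* and *Lrp8*, the reelin receptors, were open while *Reln* was empty. *Dab1*, the adaptor below those receptors, and *Stra6*, a retinol transporter, were among those that lacked an open start. *Pdgfra* stands in both lists.

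Marker genes of macrophages and of other cells were counted in the same way. Of 10 macrophage genes, 7 had an open start, including *Adgre1* (F4/80), *Clec4f*, and *Spi1*, while *Csf1r*, *Marco*, and *Vsig4* did not, although each had at least 1 region in its window. Open starts were found at 8 of 10 endothelial genes, all but *Flt4* and *Cdh5*, and at 10 of 10 hepatocyte genes. Genes of neuron and muscle were open in 2 of 10, *Snap25* and *Actn3*, at 928 bp and 744 bp from a start, and 5 of 10 had no region in their window. The 10 stellate cell genes at 4 of 10 lay between this list and the lists of the other liver cells. With regions of at least 200 bp they had 3 of 10, as did the macrophage and the endothelial genes. The hepatocyte genes then had 7 of 10 and the neuron and muscle genes 0 of 10. The lists also differ in CpG class. Among CpG-poor genes, 2 of 5 members, 7 of 10 macrophage, 7 of 8 endothelial, 10 of 10 hepatocyte, and 2 of 9 neuron and muscle genes had an open start. Whether the open regions of the stellate cell genes came from LMs or from other cells was not tested.

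**Figure D4:**
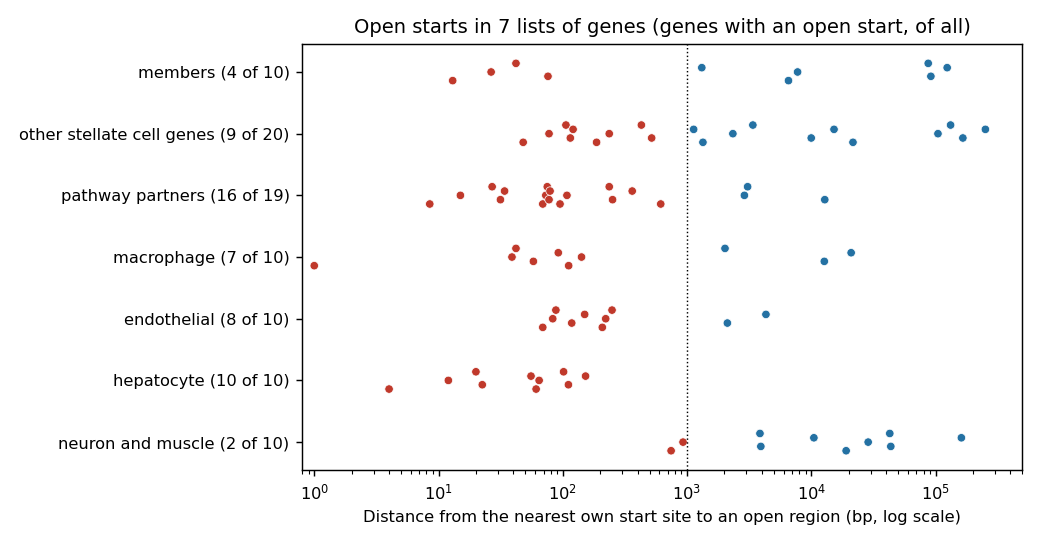
Distance from the nearest own start to the midpoint of an open region, in bp on a log axis, for each gene of 7 lists, with the members on top. Each point is a gene, red within 1000 bp and blue beyond, and the number with an open start stands beside the list's name. The 10 hepatocyte genes all lie left of the dotted line at 1000 bp, the neuron and muscle genes mostly right of it, and the 10 stellate cell genes are split between both sides.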

How the data were processed

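Fast-ATAC-Seq libraries of LMs were processed by the authors with the ATAC-Seq pipeline of the Kundaje laboratory, in which reads were trimmed and aligned to mm9 with Bowtie and peaks were called after replicates were merged, and the submitters' processing notes also name HOMER, with no versions. Beyond this pipeline, the peak calling program, its threshold, and how peaks were joined are not given in the sources used here. The deposited file gives the start and end position of each region, which are neither counts nor scores, and starts were converted to count from 1. Checked against NCBIM37, 0 regions lay beyond a chromosome's last base, and 69362 regions lay on chromosomes 1 to 19, X, and Y.

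The rule named every member, its region nearest the 5′ end, and its widest region, and the genes of other lists on the smaller side of each count, open or not, except for some that are not reported here. Members, lists, and alternatives were chosen with earlier results of these data known. CpG classes, CArG-like sites, TATATA, windows of like length, and the use of coding transcripts alone were added after the data were seen. *Adgre1*, *Spi1*, and *Tf* were matched through RefSeq synonyms to *Emr1*, *Sfpi1*, and *Trf*. Counting and motif search, on both strands with overlaps allowed, were written in Python 3.11.15 with NumPy 2.4.6 and pysam 0.24.0. Tests on simulated data covered the call of open starts and the motif search. They left out the CTCF, CArG-like, TATATA, DR5, and TGANTCA patterns and the assignment of regions to gene windows. Motif shares of all regions are over those on chromosomes 1 to 19, X, and Y. The share of protein-coding genes with an open start has a Wilson 95% interval of 56.1% to 57.4%, which covers counting error over genes only. No depth, replicate error, or test could be had from positions alone.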

Additional observations from a re-analysis of the deposited data

How the results depend on the processing

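Of 76 alternative values, 51 stayed within the limit set for a change and 25 did not. For counts and medians the limit was a factor of 1.5, and for percentages it was the Wilson 95% interval of the main value. That interval is narrow for many genes or regions and wide for few, so the split does not measure how robust the values are. The genes with an open start were *Pdgfrb*, *Des*, *Hgf*, and *Lhx2* with starts within 500 bp, with any base of a region in place of its midpoint, with the 5′ end alone, and with coding transcripts alone, but *Ngfr* was added within 2000 bp and *Pdgfrb* was lost with regions of at least 200 bp. The share of protein-coding genes with an open start was 54.5% within 500 bp, 59.5% within 2000 bp, 53.1% with the 5′ end only, and 55.9% with coding transcripts only. With regions of at least 200 bp it was 34.4%. Open starts then fell to 4 of the other stellate cell genes, 3 of the macrophage genes, 3 of the endothelial genes, and 7 of the hepatocyte genes. They also fell to 8 of the partners and to 0 of the neuron and muscle genes, which had 0 within 500 bp as well. Under this width limit the 10 genes kept 5 regions, 2 of them away from starts, with medians of 0.00 regions per 100 kb for the 10 genes and 0.96 for protein-coding genes. The 10 genes had 13 regions (8 away from starts) with no flank and 40 (34 away) with flanks of 50 kb. The median per 100 kb was then 3.40 for the 10 genes and 1.38 for protein-coding genes with no flank, and 2.45 and 4.73 with flanks of 50 kb, so their order turned. *Lrat*, *Reln*, and *Rgs5* had 0 regions at each of these flanks. AP-1 sites were in 12.4% of all regions in windows of 500 bp, beside 2 of 20 member regions. With TGANTCA they were in 8.3%, beside 1 of 20. Among regions of at least 200 bp they were in 7.51%, beside 0 of only 5 member regions. No paired analysis was possible because libraries carry no values of their own, and unknown depth limits what an absent region can show.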
